A study of Mus musculus with 2 samples.

Results

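Mitochondrial ribosomal proteins were followed at the RNA level in the testis of 1 adult male mouse. The members were the protein-coding genes named Mrpl or Mrps plus a number in annotation release M21 on mm10. This rule took 77 genes, 48 of the large subunit (Mrpl) and 29 of the small subunit (Mrps), out of 43346 genes in the tables and 21474 protein-coding ones. The rule uses names and no measured value, though it was set with earlier results of these data known. The animal was of the inbred strain C57BL/6J and 10 weeks old, with no allele or treatment given in the labels. The RNA was enriched for polyA tails, and it was sequenced as 2 technical libraries, replicate 2 (made in 2015) and replicate 1. There was 1 group and no condition, so the only comparison is between libraries, and every value describes this animal. Bulk testis mixes germ cells and somatic cells, and in it fewer cells of a type and less RNA per cell cannot be told apart.

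The mitochondrial ribosome makes the few proteins encoded by mitochondrial DNA, all of them subunits of the respiratory chain and ATP synthase. Its ribosomal RNAs come from mitochondrial DNA, while all its proteins are encoded in the nucleus, made in the cytosol and imported. The small subunit reads the messenger RNA, and the large subunit joins the amino acids and sits at the inner membrane. In testis, developing germ cells reshape their mitochondria, which end up wound around the sperm midpiece.

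Summed expected counts were 20675521 in replicate 2 and 31995370 in replicate 1. The labelled tissue was checked by its markers. The 4 elongating spermatid markers Prm1, Prm2, Tnp1 and Tnp2 had 9012 to 15928 TPM in replicate 2 and 45.4 to 3011 TPM in replicate 1. Round spermatid markers Acrv1 and Spaca1 went the other way, with 245 to 372 TPM in replicate 2 and 388 to 503 TPM in replicate 1. So did the germ cell markers Ddx4 and Mael, with 319 to 1108 TPM in replicate 2 and 692 to 2334 TPM in replicate 1. The spermatocyte markers Sycp3 and Ldhc spanned 263 to 4131 TPM in replicate 2 and 807 to 2850 TPM in replicate 1, with log2 ratios of -1.93 and 0.32 that differ in sign. Median transcript GC content was 56.4% for elongating spermatid, 47.6% for round spermatid, 44.9% for germ cell and 42.6% for spermatocyte markers. Whether GC content or cell stage has a part in these differences was not tested. TPM is a level corrected for transcript length and library depth. Leydig, Sertoli and peritubular markers all reached 1 TPM in each library. So did Crisp1 and Cst8, which were listed as epididymis markers and spanned 19.3 to 418 TPM in replicate 2 and 53.8 to 797 TPM in replicate 1. Whether their reads come from epididymis or from testis cells was not tested, nor was their part in the members' levels. The macrophage markers Csf1r and Cd68 stayed at 5.32 TPM or less in replicate 2 and at 0.74 TPM or less in replicate 1. Endothelium markers Cdh5 and Pecam1 had 1.40 to 3.76 TPM in replicate 2 and 0.87 to 1.18 TPM in replicate 1. The hemoglobin genes Hba-a1 and Hbb-bs had 75.5 and 111 TPM in replicate 2, against 11.9 and 8.28 TPM in replicate 1.

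Nearly all members were present. Detection needed at least 1 TPM in each library, and 72 of the 77 members (93.5%) passed, against 54.6% of protein-coding genes. By subunit, 45 of 48 large and 27 of 29 small subunit genes passed. The members had a median of 36.1 TPM in replicate 2 and 17.5 TPM in replicate 1, against medians of 4.60 and 1.89 TPM over all protein-coding genes. The median member stood at percentile 79.7 of protein-coding genes in replicate 2 and at percentile 75.4 in replicate 1. Together the members held 0.199% of the counts in replicate 2 and 0.148% in replicate 1.

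Both subunits were at similar levels. The large subunit genes had a median of 39.3 TPM in replicate 2 and 16.7 TPM in replicate 1, and the small subunit genes had 33.8 and 17.5 TPM. Summed over genes, the large subunit reached 2516 TPM in replicate 2 and 1676 TPM in replicate 1. The small subunit summed to 1058 TPM in replicate 2 and 692 TPM in replicate 1. These sums are over 48 and 29 genes, so they do not compare protein for protein. Members of a complex are not replicates, and no test between subunits was run.

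**Figure D1:**
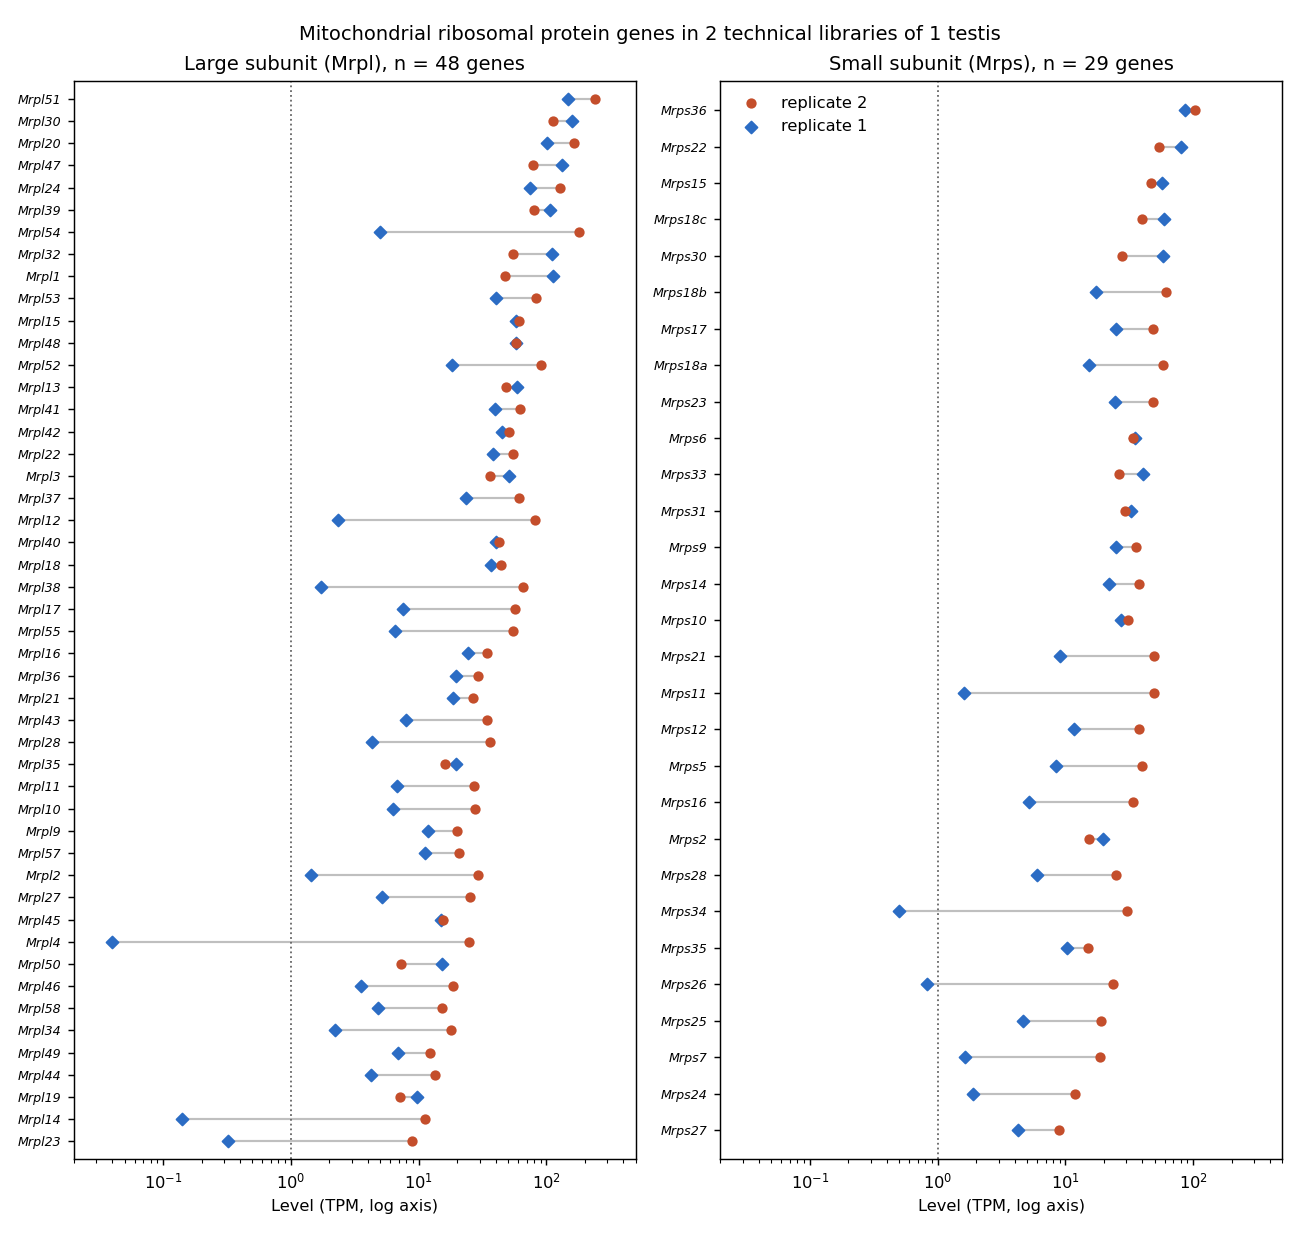
Level of each large subunit gene (left panel) and small subunit gene (right panel) in TPM on a log axis, with circles for replicate 2, diamonds for replicate 1 and a dotted line at 1 TPM. The 5 diamonds left of the line are Mrpl4, Mrpl14, Mrpl23, Mrps26 and Mrps34, and no circle is left of it.

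In the large subunit, Mrpl51 had the highest mean level. It had 239 TPM in replicate 2 and 148 TPM in replicate 1, or 194 ± 64.8 TPM (SD, n = 2 technical libraries). Mrpl30, the relative of bacterial ribosomal protein L30, followed with 114 TPM in replicate 2 and 160 TPM in replicate 1. The order of these genes changed between the libraries, since Mrpl51 led in replicate 2 and Mrpl30 in replicate 1. Mrpl20 had 164 TPM in replicate 2 and 102 TPM in replicate 1. Mrpl24 had 127 TPM in replicate 2 and 74.1 TPM in replicate 1. Mrpl20 and Mrpl24 are relatives of the bacterial proteins L20 and L24, which bind ribosomal RNA early in assembly in Escherichia coli. Mrpl47, the relative of bacterial L29, had 78.7 TPM in replicate 2 and 132 TPM in replicate 1. Mrpl39, which resembles part of a threonyl-tRNA ligase, had 79.3 TPM in replicate 2 and 108 TPM in replicate 1. These 6 genes were among the 10 highest large subunit genes in both libraries.

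At the low end of the large subunit were Mrpl23, Mrpl14, Mrpl19, Mrpl44, Mrpl49 and Mrpl34 by mean TPM. Mrpl19 had 7.13 TPM in replicate 2 and 9.67 TPM in replicate 1, so it was low in both. Mrpl44, which has a fold related to ribonuclease III, had 13.3 TPM in replicate 2 and 4.23 TPM in replicate 1. Mrpl49 had 12.3 TPM in replicate 2 and 6.85 TPM in replicate 1. Mrpl34 had 17.9 TPM in replicate 2 and 2.22 TPM in replicate 1. Apart from Mrpl19, the low genes had less in replicate 1 than in replicate 2. In replicate 2, 45 of 48 large subunit genes reached 10 TPM, and in replicate 1 it was 28 of 48.

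In the small subunit, Mrps36 was highest, with 103 TPM in replicate 2 and 86.2 TPM in replicate 1. The protein it encodes is known as a part of the alpha-ketoglutarate dehydrogenase complex, an enzyme of the citric acid cycle, despite its ribosomal name. Mrps22, a protein found in mitochondrial but not bacterial ribosomes, had 54.1 TPM in replicate 2 and 81.0 TPM in replicate 1. Mrps15, the relative of bacterial S15, which binds the small subunit ribosomal RNA, had 46.8 TPM in replicate 2 and 57.0 TPM in replicate 1. These 3 genes, with Mrps17 and Mrps18c, were the 5 that stood among the 10 highest small subunit genes in both libraries. Mrps30 had 27.9 TPM in replicate 2 and 58.0 TPM in replicate 1.

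The lowest small subunit genes by mean TPM were Mrps27, Mrps24, Mrps7, Mrps25, Mrps26 and Mrps35. Mrps27, a protein with pentatricopeptide repeats, a fold that binds RNA, had 8.88 TPM in replicate 2 and 4.25 TPM in replicate 1. Mrps24 had 11.9 TPM in replicate 2 and 1.88 TPM in replicate 1. Mrps7, the relative of bacterial S7 in the head of the small subunit, had 18.6 TPM in replicate 2 and 1.63 TPM in replicate 1. All 6 had less TPM in replicate 1, though the log2 ratio of scaled counts was only 0.14 for Mrps25 and 0.0043 for Mrps35. Mrps25 had 19.1 TPM in replicate 2 and 4.69 TPM in replicate 1, and Mrps35 had 15.1 TPM in replicate 2 and 10.3 TPM in replicate 1. The small subunit genes spanned an 11.6-fold range in replicate 2 and a 172-fold range in replicate 1, so the levels were more spread out in replicate 1.

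Mammals have 3 relatives of the bacterial small subunit protein S18, and all were detected. Mrps18b had 60.8 TPM in replicate 2 and 17.5 TPM in replicate 1. Mrps18c had 39.9 TPM in replicate 2 and 59.1 TPM in replicate 1. Mrps18a had 58.3 TPM in replicate 2 and 15.3 TPM in replicate 1. The order differed by library, with Mrps18b highest in replicate 2 and Mrps18c highest in replicate 1. In structures of the pig and human mitochondrial ribosome, Mrps18b and Mrps18c lie in the small subunit, and Mrps18a lies in the large subunit, as does Mrps30. With Mrps18a and Mrps30 moved to the large subunit and Mrps36 left out, the median over the mean TPM of both libraries was 32.9 TPM for 50 large and 27.3 TPM for 26 small subunit genes, against 31.3 and 29.2 TPM by name.

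Mrpl12 belongs to the stalk of the large subunit, which recruits translation factors, and is anchored there by Mrpl10. Mrpl12 had 81.6 TPM (1072 counts) in replicate 2 and 2.34 TPM (56 counts) in replicate 1. Mrpl10 had 27.5 TPM in replicate 2 and 6.28 TPM in replicate 1. In replicate 2 the level of Mrpl12 was above that of Mrpl10, and in replicate 1 it was below it. Mrpl10 and the next 3 genes were chosen after their values were seen. Mrpl45, on the side of the ribosome that faces the inner membrane, had 15.4 TPM in replicate 2 and 14.9 TPM in replicate 1. Mrpl48 had 58.0 TPM in replicate 2 and 57.9 TPM in replicate 1, so both were close between the libraries. Mrpl58, also known as Ict1, which can release stalled peptides, had 15.4 TPM in replicate 2 and 4.81 TPM in replicate 1.

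The 5 members that missed the detection limit did so in replicate 1 only. Mrpl4, the relative of bacterial L4, which lines the exit tunnel of the ribosome, had 24.96 TPM from 378 counts in replicate 2 and 0.04 TPM from 1 count in replicate 1. Mrpl14 had 11.2 TPM from 70 counts in replicate 2 and 0.14 TPM from 1 count in replicate 1. With a single read in replicate 1, the scaled ratio of replicate 2 over replicate 1 was 478 for Mrpl4 with an exact 95% interval of 85.2 to 18919, and 88.5 for Mrpl14 with an interval of 15.4 to 3544. These intervals cover counting error only. Mrps34 had 30.4 TPM (318 counts) in replicate 2 and 0.50 TPM (11.02 counts) in replicate 1, and Mrps26 had 23.5 TPM (359 counts) in replicate 2 and 0.82 TPM (31 counts) in replicate 1. Mrpl23, the relative of bacterial L23 at the mouth of the exit tunnel, had 8.95 TPM (55.3 counts) in replicate 2 and 0.32 TPM (3.65 counts) in replicate 1.

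Mrpl23 is uncertain for another reason. The processed pseudogene Mrpl23-ps1 matches it at 100% identity over 540 bases and was given 40.7 counts in replicate 2 and 1.35 counts in replicate 1. The deposited posterior SD of the Mrpl23 count was 13.8% of the count in replicate 2 and 12.3% in replicate 1. The only other member with a posterior SD over 5% of its count in either library was Mrps34, at 0.757% in replicate 2 and 10.3% in replicate 1. In all, 37 annotated pseudogenes matched 21 of the members at 90% identity or more over 200 bases or more. None of these pseudogenes reached 1 TPM in both libraries, 24 had 0 reads in both, and they held 54.9 counts in replicate 2 and 19.0 in replicate 1.

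Mrpl33 was not a member, because its identifier in release M21 is absent from the tables. Its transcript Mrpl33-201 is listed there under another gene identifier, ENSMUSG00000029142. It had 63.9 TPM in replicate 2 and 37.9 TPM in replicate 1, which is within the range of the members.

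Counts were then compared between the libraries, gene by gene, with an exact two-sided binomial test after TMM scaling, adjusted by Benjamini-Hochberg over 18581 genes. All 77 members were tested. Genes were called at a ratio of at least 2 with the adjusted p below 0.05, and ratios are replicate 2 over replicate 1. What is compared is the reads of the libraries, and no condition and no animal enters the test. In replicate 2, 31 of 77 members were higher, 20 large and 11 small, against 32.1% of all genes tested. Only 4 members were lower in replicate 2, Mrpl1, Mrpl32, Mrpl50 and Mrps30, against 23.7% of all genes tested. The median log2 ratio was 0.61 for large and 0.24 for small subunit genes, and -0.0042 over all genes tested. These medians move with the scaling, and after correction for GC content they were -0.01 and -0.09.

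The largest log2 ratios among large subunit genes that averaged at least 100 counts were 8.32 for Mrpl4, 5.04 for Mrpl38, 4.87 for Mrpl54 and 4.58 for Mrpl12. Mrpl38, whose protein has the fold of phosphatidylethanolamine-binding proteins, had 65.8 TPM in replicate 2 and 1.73 TPM in replicate 1. Mrpl54 had 181 TPM in replicate 2, where it ranked second among large subunit genes, and 4.98 TPM in replicate 1. In the small subunit the largest log2 ratios were 5.13 for Mrps34, 4.74 for Mrps11, 3.85 for Mrps26 and 3.02 for Mrps7. Mrps11, the relative of bacterial S11 on the platform of the small subunit, had 49.4 TPM (498 counts) in replicate 2 and 1.61 TPM (23 counts) in replicate 1. These 8 genes were all far lower in replicate 1, and the adjusted p of the exact binomial test was 1.72e-131 for Mrpl4 and 2.55e-142 for Mrps11.

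The 4 genes that were lower in replicate 2 changed less. Mrpl1, part of the mobile L1 stalk beside the tRNA exit, had 47.5 TPM (1276 counts) in replicate 2 and 112 TPM (4796 counts) in replicate 1, a log2 ratio of -1.57. Mrpl32, a protein cut by the mitochondrial m-AAA protease before it joins the ribosome, had 54.4 TPM in replicate 2 and 111 TPM in replicate 1, a log2 ratio of -1.33. Mrpl50 had 7.28 TPM in replicate 2 and 15.2 TPM in replicate 1, a log2 ratio of -1.38, the same as that of Mrps30. No member was lower in replicate 2 by 4-fold or more, against 2.70% of all genes tested, and 21 were higher by that much, against 20.8%.

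The ratio followed the GC content of the transcripts. GC content is that of the most abundant transcript of each gene, which had the same length in release M21 for 56 of the 77 members. Among the members with 55% GC or more, 20 of 20 were higher in replicate 2, against 91.4% of all genes tested with such transcripts, and 0 were lower, against 0.371%. Their median log2 ratio was 3.66. Among the members under 45% GC, 0 of 8 were higher in replicate 2, against 0.6% of genes, and 4 of 8 were lower, against 70.9% of genes. From 45 to under 50% GC, 2 of 21 members were higher, against 4.63% of genes, and 0 were lower, against 14.4%. From 50 to under 55% GC, 9 of 28 members were higher, against 47.7% of genes, and 0 were lower, against 1.61%. Across genes, Spearman's rho between GC content and the log2 ratio was 0.81 over the 77 members and 0.89 over all genes tested, as a description of these libraries. The part of GC content in the differences of single members was not tested.

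**Figure D2:**
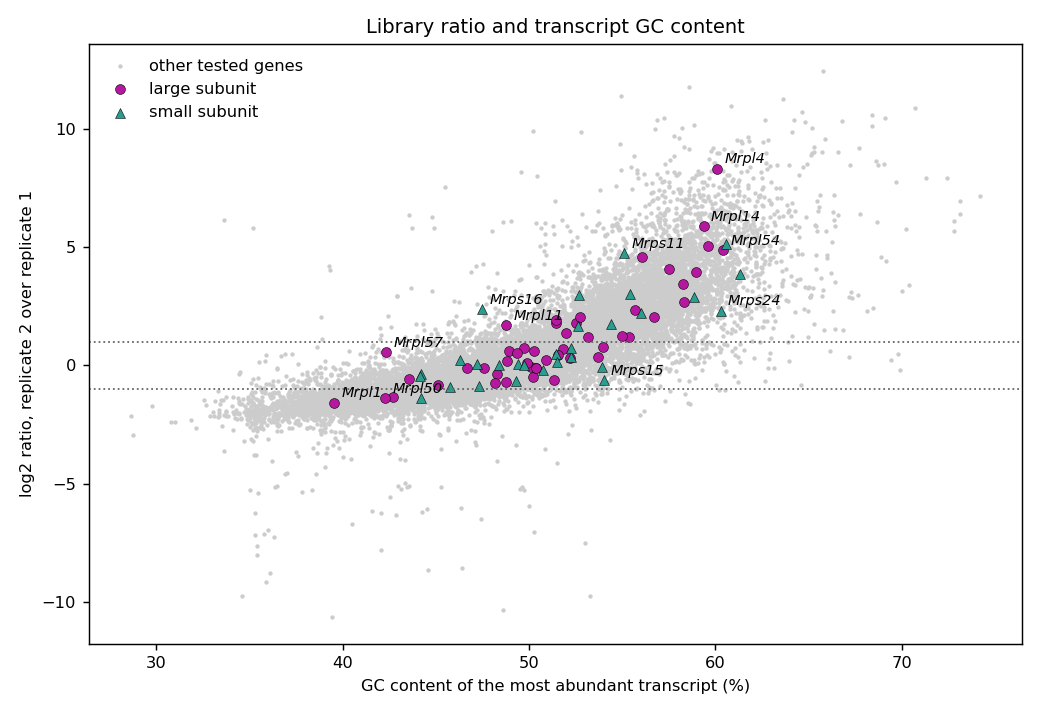
Log2 ratio of scaled counts, replicate 2 over replicate 1, against the GC content (%) of the most abundant transcript, with circles for large subunit genes, triangles for small subunit genes and grey points for all other genes tested; dotted lines mark a 2-fold ratio. The members lie within the cloud of other genes, and the 20 members at 55% GC or more are all above the upper dotted line.

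The same relation showed in the levels. In replicate 2, the rank order of TPM did not follow GC content among the members (Spearman's rho -0.02), while in replicate 1 GC-rich members were low (rho -0.66). The 20 members with 55% GC or more had a median of 33.3 TPM in replicate 2 and 2.05 TPM in replicate 1. For the 8 members under 45% GC the median was 27.1 TPM in replicate 2 and 36.6 TPM in replicate 1. The rank order of levels matched less well between the libraries for the members (rho 0.55) than for all genes tested (rho 0.78). That difference was not tested.

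Set against genes of similar GC content, the spread of the members' log2 ratios fell to an SD of 1.04, against 1.95 without the correction. After it, 9 members were higher in replicate 2, against 10.9% of all genes, and 6 were lower, against 8.70%, so both shares were near those of all genes. Of the 9, 8 were also higher without the correction. Mrpl4 stayed highest, with a corrected log2 ratio of 4.02, and Mrpl12 had 2.01. Mrps16 had 33.6 TPM (178 counts) in replicate 2 and 5.24 TPM (43 counts) in replicate 1 at 47.5% GC, and its log2 ratio was 2.37 before and 2.89 after the correction. Mrps11 kept a corrected log2 ratio of 2.73. Mrpl57 was called only after the correction, with a log2 ratio of 0.55 before and 1.82 after it. At the other end, Mrps15 had a log2 ratio of -0.62 before and -2.32 after the correction, and Mrps24 had 2.31 before and -1.98 after it. Of these genes, Mrps16 and Mrpl57 were named after their values were seen.

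The transcripts behind the levels also differed. The same transcript was the most abundant in both libraries for 56 of 77 members, against 16854 of all 21474 protein-coding genes. Among genes with more than 1 annotated transcript it was 37 of 58 members, against 8373 of 12993 protein-coding genes. These counts over all protein-coding genes include genes with 0 TPM. Transcripts annotated as protein-coding in release M21 held 76.4% of the members' summed TPM in replicate 2 and 67.4% in replicate 1. Processed transcripts without an annotated reading frame held 13.5% in replicate 2 and 19.6% in replicate 1. Targets of nonsense-mediated decay held 5.92% in replicate 2 and 9.67% in replicate 1, and retained introns held 4.16% in replicate 2 and 3.36% in replicate 1. The share for nonsense-mediated decay includes Mrpl32-201, the only listed transcript of Mrpl32, with 54.4 TPM in replicate 2 and 111 TPM in replicate 1. Its label is from release M21, where its length is another one. These shares are the authors' estimates, and reads shared by overlapping transcripts were divided between them.

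For Mrpl51, the highest member, the share of the 855-base processed transcript Mrpl51-202 was 85.9% in replicate 2 and 97.1% in replicate 1. Its protein-coding transcript Mrpl51-201, of 2741 bases, held 4.02% in replicate 2 and 2.86% in replicate 1. In Mrpl30 the most abundant transcript was one of 662 bases in replicate 2, with 43.2%, and one of 501 bases in replicate 1, with 74.7%. Both are annotated as protein-coding.

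Changes of the leading transcript were largest in genes with few reads in replicate 1. For Mrps12, the relative of bacterial S12 at the decoding centre, Mrps12-201 held 88.9% in replicate 2 and 0% in replicate 1. In replicate 1 all 49 counts of the gene went to the 380-base processed transcript Mrps12-203, which had 0 counts in replicate 2. Mrpl14 (70 counts in replicate 2, 1 in replicate 1), Mrpl23, Mrpl2 (341 and 25 counts), Mrpl38 (1079 and 41 counts) and Mrpl55 (437 and 107 counts) also changed their leading transcript. Mrpl2, the relative of bacterial L2 near the peptidyl transferase centre, had 29.3 TPM in replicate 2 and 1.43 TPM in replicate 1. Mrpl55 had 54.5 TPM in replicate 2 and 6.55 TPM in replicate 1.

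Other members changed their leading transcript at good depth, and these were chosen after their values were seen. Mrps6 had 33.8 TPM (309 counts) in replicate 2 and 35.2 TPM (411 counts) in replicate 1, so its level was close between libraries. Yet Mrps6-201 held 100% in replicate 2 and 16.1% in replicate 1, with the rest in Mrps6-202. In Mrpl22, Mrpl22-201 held 92.0% in replicate 2 and 26.6% in replicate 1, and Mrpl22-203 held 2.49% in replicate 2 and 72.8% in replicate 1. In Mrpl21, Mrpl21-201 held 79.9% in replicate 2 and 13.7% in replicate 1. Mrps18a-201 held 94.7% of its gene in replicate 2 and 34.3% in replicate 1.

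**Figure D3:**
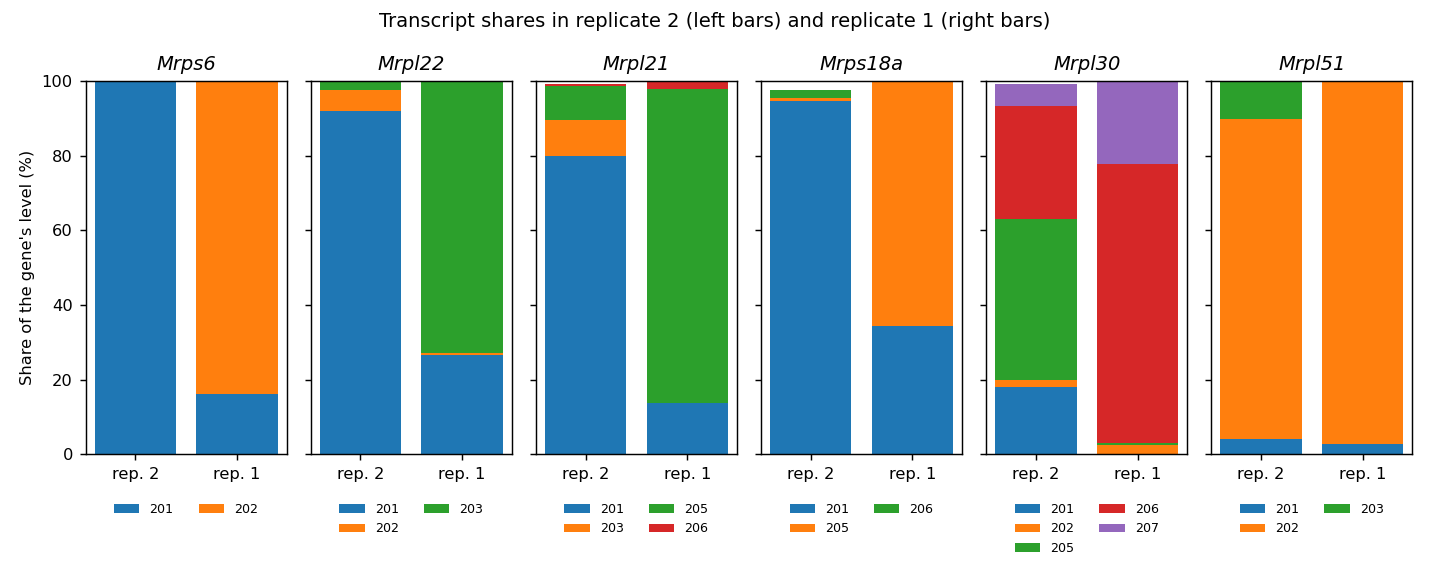
Share of each transcript (colours, numbered as in the annotation) in the level of its gene, in percent, for 6 genes with replicate 2 as the left bar and replicate 1 as the right bar; transcripts under 2% in both libraries are not drawn. The leading transcript differs between the bars in 5 genes, and in Mrpl51 it is the same, at 85.9% and 97.1%.

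The choice of transcript moved some levels apart from their counts, because TPM divides by transcript length. Over all members the log2 ratio of TPM was above the log2 ratio of scaled counts by a median of 0.32. Genes with 1 transcript also showed such a difference, as in Mrpl11 (0.32). The scaled counts carry the TMM factors, 1.11 in replicate 2 and 0.904 in replicate 1, and TPM does not. The 2 ratios thus differ in scale for every gene. In 3 members the log2 ratio of TPM exceeded the log2 ratio of scaled counts by more than 1, and in 1 member it fell short by more than 1. That difference in scale was not removed before these members were counted. For Mrps25 the counts were 278 in replicate 2 and 320 in replicate 1, a log2 ratio of 0.14, while the log2 ratio of TPM was 2.02. Its leading transcript was the 565-base Mrps25-201 in replicate 2 and the 6073-base Mrps25-203 in replicate 1. Mrps5 had 481 counts in replicate 2 and 468 in replicate 1, but 39.9 TPM in replicate 2 and 8.45 TPM in replicate 1. Mrpl17 had 351 counts and 56.7 TPM in replicate 2, and 192 counts and 7.53 TPM in replicate 1. Mrps5 and Mrpl17 were chosen after their values were seen. Mrps12 was the opposite case, with a log2 ratio of 2.88 for counts and 1.68 for TPM.

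Many members share their start region with another gene. A protein-coding gene on the opposite strand started within 1000 bases upstream, head to head, for 18 of 77 members (23.4%), against 6.75% of all protein-coding genes and 10.5% of those detected. These were 12 large and 6 small subunit genes. When starts that overlap are included, 33 members (42.9%) had an opposite-strand start within that distance, against 10.9% of all protein-coding genes and 16.5% of those detected. These are shares of annotated positions in release M21 and carry no test.

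Some of these neighbours, picked after the list was seen, encode mitochondrial proteins. No count or test of such neighbours was made. Mrps12 (chr7:28739641-28741820) starts 172 bases from Sars2, the mitochondrial seryl-tRNA ligase, and Mrpl47 overlaps the start of Ndufb5, a subunit of respiratory complex I, by 615 bases. Mrpl36 overlaps Ndufs6, another complex I subunit, by 29 bases, and Mrpl43 overlaps Twnk, the helicase of mitochondrial DNA, by 779 bases. One pair consists of members only: Mrpl46 and Mrps11 on chromosome 7 overlap by 412 bases, so a large and a small subunit gene share 1 start region. All these overlaps are between gene starts of release M21. The RefSeq start lies inside the gene, 850 bases from the M21 start for Mrpl47, 442 for Mrpl46 and 2496 for Mrpl36. Each of these offsets is larger than the overlap given for that gene. For Mrpl43 the RefSeq and M21 starts are the same. Mrpl46 had 18.5 TPM in replicate 2 and 3.54 TPM in replicate 1, and Mrps11 had 49.4 TPM in replicate 2 and 1.61 TPM in replicate 1. Whether the counts used strand is not given in the sources used here, so reads of overlapping ends cannot be told apart.

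Levels of head-to-head neighbours were not alike. The neighbour was below the member in both libraries in 11 of 18 pairs and above it in both in 5. Mrpl30 had 114 TPM in replicate 2 and 160 TPM in replicate 1, while Mitd1, which starts 66 bases away, had 3.89 TPM in replicate 2 and 7.45 TPM in replicate 1. Mrpl51 stood above Ncapd2, a condensin subunit, which had 64.9 TPM in replicate 2 and 15.3 TPM in replicate 1. Conversely, Mrpl49 had 12.3 TPM in replicate 2 and 6.85 TPM in replicate 1, and its neighbour Fau, which encodes a cytosolic ribosomal protein, had 558 TPM in replicate 2 and 12.7 TPM in replicate 1. Mrpl10 was far below Lrrc46, which had 877 TPM in replicate 2 and 241 TPM in replicate 1.

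**Figure D4:**
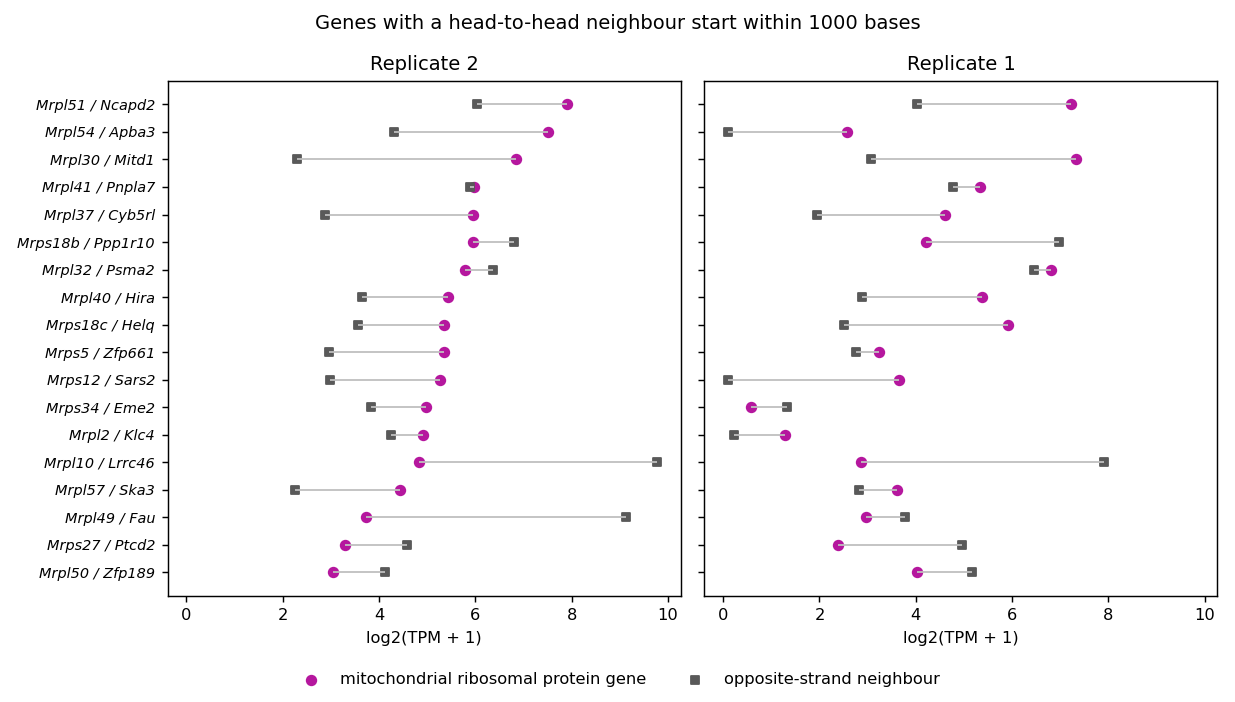
Level as log2(TPM + 1) of 18 members (circles) and their head-to-head neighbours (squares) in replicate 2 (left panel) and replicate 1 (right panel), 1 pair per row. The square lies left of the circle in both panels in 11 pairs and right of it in both in 5.

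The members lay on every autosome except 12 and 18, with 11 on chromosome 11 and 8 on chromosome 17. None was on X or Y. The X chromosome holds 4.38% of protein-coding genes, and it is silenced in spermatocytes.

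Promoter sequences from RefSeq (GRCm38.p6, from 250 bases before to 50 after the start) were found for 68 of the 77 members. They were searched on both strands for motifs known from promoters of nuclear genes for mitochondrial proteins. The core site of nuclear respiratory factor NRF1, searched as GCGCA, any base and then GCGC, was in 13 of 68 members (19.1%), against 6.96% of all 16316 promoters. CCGGAAG, a site of ETS factors such as GABPA, was in 23 (33.8%), against 12.4%. AAGATGGC, a site of YY1, was in 12 (17.6%), against 3.30%. These matches lay on either side of the start, as in Mrps18a (11 bases after it) and Mrps11 (107 bases before it). The motif holds the letters ATG of a start codon, and whether matches are start codons was not tested. The CCAAT box was in 26 (38.2%), against 38.7%. CACGTG was in 5 (7.35%), against 8.13%, and TATAAA was in 4 (5.88%), against 12.7%. Among promoters of detected genes the shares were 10.6% for the NRF1 core, 18.3% for CCGGAAG and 4.69% for AAGATGGC. For the other motifs they were 39.8% for CCAAT, 9.99% for CACGTG and 7.14% for TATAAA, the last close to the share in members. A match describes letters in a window and is not a site of binding, and motifs were counted without regard to GC content, whose median was 58.5% in members and 57.0% in all promoters.

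Shown are 6 of these windows, each 5′ to 3′ on the gene's strand, with the NRF1 core, CCGGAAG and AAGATGGC on either strand in capitals. Mrpl45 (chr11:97315466-97315765, plus strand) holds the NRF1 core at 3 places. Mrpl30 (chr1:37890227-37890526, plus strand) led the large subunit in replicate 1 and holds 1 NRF1 core in the window it shares with the start of Mitd1. Mrpl51 (chr6:125191950-125192249, plus strand) led in replicate 2 and holds CCGGAAG, in a window whose RefSeq start lies 399 bases from the M21 start. Mrps18a (chr17:46110754-46111053, plus strand) holds both CCGGAAG and AAGATGGC. Mrps22 (chr9:98601630-98601929, minus strand) was the second highest small subunit gene by mean TPM. Mrps11 (chr7:78782881-78783180, plus strand) shares only a part of its window with that of Mrpl46 (chr7:78783040-78783339, minus strand). Its AAGATGGC is on the other strand and lies outside the Mrpl46 window, which holds none of the 3 motifs.
Mrpl45: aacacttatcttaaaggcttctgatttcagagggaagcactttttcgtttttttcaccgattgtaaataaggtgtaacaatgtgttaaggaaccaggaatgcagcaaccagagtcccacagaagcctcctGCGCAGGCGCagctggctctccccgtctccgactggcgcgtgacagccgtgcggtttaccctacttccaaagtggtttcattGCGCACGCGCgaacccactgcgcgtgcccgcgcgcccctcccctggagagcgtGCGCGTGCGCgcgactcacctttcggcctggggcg
Mrpl30: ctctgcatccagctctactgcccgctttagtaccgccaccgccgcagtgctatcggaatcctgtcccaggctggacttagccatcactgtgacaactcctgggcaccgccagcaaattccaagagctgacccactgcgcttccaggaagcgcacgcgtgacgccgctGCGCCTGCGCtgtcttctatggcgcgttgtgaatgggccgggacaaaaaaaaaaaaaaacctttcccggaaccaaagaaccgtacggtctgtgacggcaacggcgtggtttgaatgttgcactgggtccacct
Mrpl51: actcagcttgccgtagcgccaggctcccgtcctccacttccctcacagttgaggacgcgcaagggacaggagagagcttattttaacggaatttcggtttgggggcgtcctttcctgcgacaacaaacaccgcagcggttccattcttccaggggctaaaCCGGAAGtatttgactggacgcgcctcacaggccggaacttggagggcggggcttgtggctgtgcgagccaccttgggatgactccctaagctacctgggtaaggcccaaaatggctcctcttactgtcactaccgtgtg
Mrps18a: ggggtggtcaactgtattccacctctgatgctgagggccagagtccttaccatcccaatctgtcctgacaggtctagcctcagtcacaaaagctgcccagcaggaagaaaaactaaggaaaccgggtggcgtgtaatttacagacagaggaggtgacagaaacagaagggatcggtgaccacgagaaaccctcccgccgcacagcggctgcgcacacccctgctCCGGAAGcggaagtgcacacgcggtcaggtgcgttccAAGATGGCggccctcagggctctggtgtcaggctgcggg
Mrps22: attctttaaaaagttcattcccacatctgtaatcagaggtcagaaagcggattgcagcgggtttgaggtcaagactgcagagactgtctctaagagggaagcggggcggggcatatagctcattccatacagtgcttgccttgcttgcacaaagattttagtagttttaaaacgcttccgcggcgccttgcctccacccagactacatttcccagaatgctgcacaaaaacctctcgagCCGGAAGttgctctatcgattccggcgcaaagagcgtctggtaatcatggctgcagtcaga
Mrps11: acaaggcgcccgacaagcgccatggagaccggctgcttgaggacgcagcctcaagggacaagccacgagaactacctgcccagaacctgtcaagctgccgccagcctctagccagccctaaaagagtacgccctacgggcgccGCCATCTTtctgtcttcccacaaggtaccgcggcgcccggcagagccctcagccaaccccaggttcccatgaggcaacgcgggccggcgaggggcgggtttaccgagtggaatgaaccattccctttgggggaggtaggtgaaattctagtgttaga
In Mrpl45 the matches are GCGCAGGCGC, GCGCACGCGC and GCGCGTGCGC, the last of them read on the other strand. Its level was 15.4 TPM in replicate 2 and 14.9 TPM in replicate 1, well below that of Mrpl30, with 1 match, and of Mrpl51, with none.

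Genes that work with the mitochondrial ribosome were set beside the members, from lists chosen with earlier results known. The shares called over all genes tested, 32.1% higher and 23.7% lower, apply to the counts of each list. Of 5 mitochondrial ribosomal proteins that carry other names, 4 were detected, 2 were higher and 1 lower in replicate 2. Dap3, a GTP-binding small subunit protein, had 258 TPM in replicate 2 and 216 TPM in replicate 1. Aurkaip1 had 98.3 TPM in replicate 2 and 5.03 TPM in replicate 1, Chchd1 had 49.4 TPM in replicate 2 and 53.5 TPM in replicate 1, and Ptcd3 had 29.9 TPM in replicate 2 and 61.0 TPM in replicate 1. Dap3 thus had a higher mean than any member. Gadd45gip1, a large subunit protein outside the rule for named genes, had 10.2 TPM in replicate 2 and 0.42 TPM in replicate 1, and was the one not detected.

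The 17 translation factors were all detected, with medians of 15.6 TPM in replicate 2 and 12.6 TPM in replicate 1. Of these, 3 were higher and 3 lower in replicate 2. Rmnd1, an inner membrane protein needed for mitochondrial translation, had 157 TPM in replicate 2 and 222 TPM in replicate 1. Slirp, which stabilises mitochondrial messenger RNAs, had 81.3 TPM in replicate 2 and 98.2 TPM in replicate 1. Both were above most members in each library. The initiation factor Mtif2 had 20.1 TPM in replicate 2 and 39.3 TPM in replicate 1, and the recycling factor Mrrf had 30.1 TPM in replicate 2 and 26.8 TPM in replicate 1.

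Of 20 mitochondrial tRNA ligase genes, 16 were detected, with medians of 10.2 TPM in replicate 2 and 6.92 TPM in replicate 1, and 9 were higher and 2 lower in replicate 2. Lars2, for leucine, was highest, with 195 TPM in replicate 2 and 26.4 TPM in replicate 1. Rars2, for arginine, had 23.2 TPM in replicate 2 and 41.0 TPM in replicate 1. Fars2, for phenylalanine, had 50.1 TPM in replicate 2 and 8.30 TPM in replicate 1. Gatc, part of the enzyme that makes glutaminyl-tRNA, had 12.4 TPM in replicate 2 and 21.5 TPM in replicate 1.

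Of 25 assembly factors, 19 were detected, with medians of 9.63 TPM in replicate 2 and 3.48 TPM in replicate 1, and 13 were higher and 3 lower in replicate 2. Nsun4, a ribosomal RNA methyltransferase, had 155 TPM in replicate 2 and 134 TPM in replicate 1. Mterf3, with roles in mitochondrial transcription and ribosome assembly, had 78.9 TPM in replicate 2 and 209 TPM in replicate 1. Tfb1m, which methylates the small ribosomal RNA, had 57.7 TPM in replicate 2 and 79.1 TPM in replicate 1. Dhx30, an RNA helicase, had 91.4 TPM in replicate 2 and 11.3 TPM in replicate 1. Ybey, an endoribonuclease, was under 1 TPM in both libraries, with 0.82 TPM in replicate 2 and 0.49 TPM in replicate 1.

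Of the 4 genes for transcription of mitochondrial DNA, 3 were detected. Tfam, which packs that DNA and starts its transcription, had 334 TPM in replicate 2 and 848 TPM in replicate 1. Tfb2m had 16.2 TPM in replicate 2 and 34.4 TPM in replicate 1, and Tefm had 8.03 TPM in replicate 2 and 7.98 TPM in replicate 1. The RNA polymerase gene Polrmt had 22.8 TPM in replicate 2 and 0.54 TPM in replicate 1. The mitochondrial ribosomal RNAs had 165 TPM (mt-Rnr1) and 122 TPM (mt-Rnr2) in replicate 2, and 512 TPM (mt-Rnr1) and 439 TPM (mt-Rnr2) in replicate 1. These libraries were selected for polyA tails, so the levels of these RNAs are those of what the selection kept.

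The members were well below 2 other large groups. The 85 nuclear genes for respiratory chain subunits had medians of 130 TPM in replicate 2 and 53.6 TPM in replicate 1, and the 92 cytosolic ribosomal protein genes had 333 TPM in replicate 2 and 46.2 TPM in replicate 1. In the respiratory chain list 41 of 82 genes tested were higher and 4 lower in replicate 2. In the cytosolic list 54 of 88 were higher, against 32.1% of all genes tested, and 2 were lower, against 23.7%. The median log2 ratio was 0.53 for the members, 0.98 for the respiratory chain list and 2.05 for the cytosolic list, at median GC contents of 51.4%, 51.9% and 51.3%. No test was run between the lists, and the cytosolic list holds genes with near-identical pseudogenes, whose counts are uncertain.

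**Figure D5:**
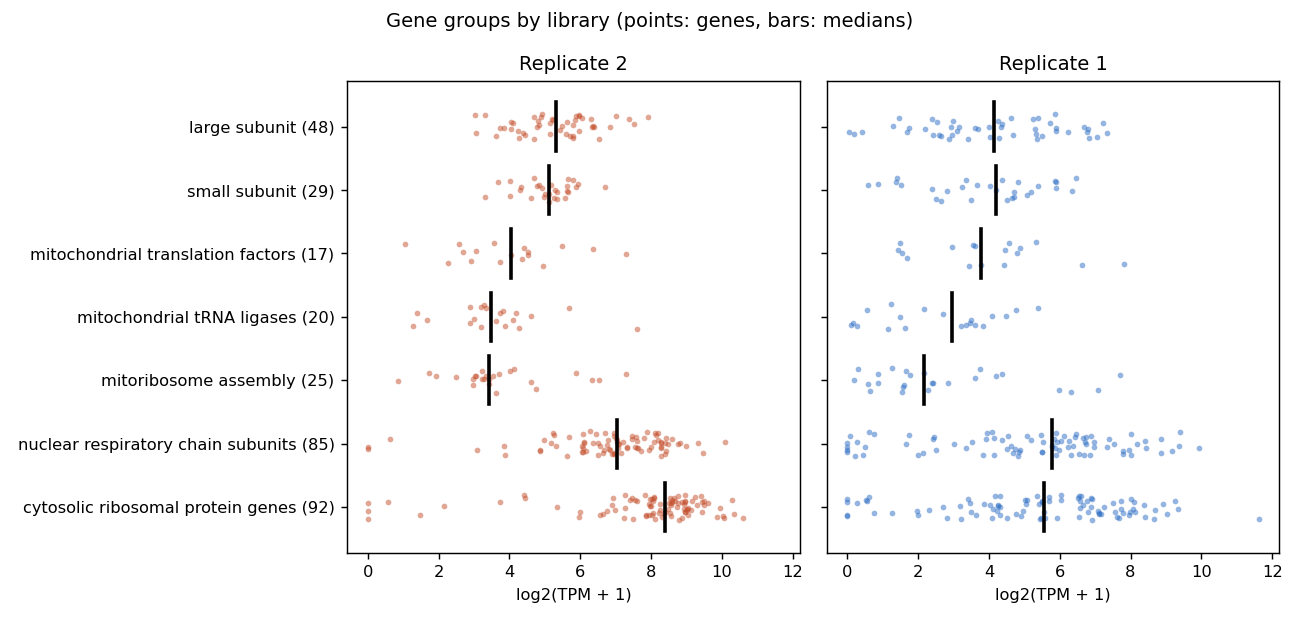
Level of each gene (points) as log2(TPM + 1) by gene group, with the number of genes in brackets and the median as a bar, in replicate 2 (left panel) and replicate 1 (right panel). The medians of both subunits lie between those of the translation factors and the respiratory chain subunits in each panel.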

How the data were processed

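Both libraries are polyA RNA-seq of testis from 1 animal. Per the deposited notes, each was quantified separately from transcriptome alignments on mm10 with annotation release M4; for the aligner and the quantification program, a name is not given in the sources used here. As deposited, the authors' tables hold expected counts, TPM, FPKM and, as a percent, the share of each transcript in its gene. GENCODE release M21 gave gene names, biotypes and coordinates and matched 42462 of 43346 genes. The other 26345 entries of the gene tables, which carry no such identifier, held 0 counts in replicate 2 and 5 in replicate 1 and were left out.

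Levels use TPM as deposited. Expected counts were rounded, scaled by TMM (edgeR 4.0.16; factors 1.11 in replicate 2 and 0.904 in replicate 1) and tested gene by gene (binomial test, exact, two-sided, conditional on the gene's total). Benjamini-Hochberg adjustment of p-values ran over genes averaging at least 10 counts. Calls needed a ratio of at least 2 with the adjusted p below 0.05. Log2 ratios add 0.5 to each count. The test was tested on simulated data. The correction for GC content subtracts the median log2 ratio of genes of similar GC content (100 bins). A count of 0 allows up to 3 counts, or 0.145 CPM in replicate 2 and 0.0938 in replicate 1. Intervals and floors cover counting error only.

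Named genes are, per subunit, the 6 highest and 6 lowest by mean TPM, all members under 1 TPM in either library, the 4 largest log2 ratios in each direction among called members averaging at least 100 counts, the Mrps18 genes, Mrpl12, the 6 largest changes of leading transcript, and of each other list the 4 highest and any gene under 1 TPM in both libraries. The members and lists were chosen with earlier results of these data known. Alternatives were other detection limits, posterior mean TPM, FPKM, each library alone, plain totals, DESeq2 1.42.0 size factors, other ratio limits and filters, and edgeR's exact test at an assumed coefficient of variation of 0.1. Pseudogenes were matched with BLAST 2.17.0. Other tools were Python 3.11.15 with scipy 1.17.1, pandas 2.3.3, numpy 2.4.6 and matplotlib 3.10.9, and R 4.3.3.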

Additional observations from a re-analysis of the deposited data

How the results depend on the processing

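Of 62 values recomputed under alternatives, 2 reversed and 13 moved past a set limit, which was 1 SD between the libraries for levels, 1.5 times for counts of members and counting error for median log2 ratios. The other 47 stayed within it, which still let the large subunit median range from 16.7 TPM without replicate 2 to 39.3 TPM without replicate 1. For summed TPM, a library taken alone always lies within 1 SD of the mean of both libraries. Those values could not pass the limit and say nothing on stability. The small subunit median TPM did pass the limit without replicate 2, at 17.5 TPM against 29.2 TPM over the mean of both libraries. The reversals were the median log2 ratios, which were -0.013 for large and -0.092 for small subunit genes with the GC correction, against 0.61 and 0.24 without it. With plain library totals these medians were 0.90 and 0.53, where the median of all genes moved to 0.29 from -0.0042. For large subunit genes DESeq2 size factors gave 0.64. With a mean of 100 counts or more the medians of large and small subunit genes were 0.54 and 0.19, where the median of all genes was -0.11. With TPM and a pseudocount of 1 they were 0.74 and 0.93, where the median of all genes was 0.20. The number of members higher in replicate 2 was 9 with the GC correction (10.9% of all genes), against 31 without it (32.1%). The number lower was 13 at a ratio limit of 1.5 (33.7% of all genes) and 0 at a ratio limit of 4 (2.70%), against 4 at a limit of 2 (23.7%). In FPKM the summed levels were 1401 for large and 585 for small subunit genes, against 2096 and 875 TPM over the mean of both libraries. A change of ratio limit changes the rule for a call, and FPKM is another unit than TPM. The GC correction by its construction compares genes of like GC content. For the other moves the cause was not tested.

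With 1 library left out, detected members were 45 to 48 (large) and 27 to 29 (small), median TPM was 16.7 to 39.3 and 17.5 to 33.8, and summed TPM was 1676 to 2516 and 692 to 1058, with replicate 1 always the lower. No paired analysis was possible because there is 1 group. With 1 animal nothing here measures spread between animals. Members with 1 to 4 counts in replicate 1 (Mrpl4, Mrpl14 and Mrpl23) carry wide counting error in that library, although it is the deeper one.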
